A study of Mus musculus with 12 samples.

Results

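CD8 and the other T cell lineage molecules were described at the transcript level in cDC1, the type 1 conventional dendritic cells, which present captured antigen to CD8 T cells. The set was given by name as 9 genes: the CD8 chains Cd8a and Cd8b1, the CD3 chains Cd3d, Cd3e and Cd3g, the co-receptor Cd4, the surface receptor Cd5, the adaptor Lat and the kinase Lck. Of these, 8 were measured among the 19938 genes tested, each by 1 probe set that carried a single gene symbol. Lck had no such probe set and was not analysed here.

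CD8 is built from an alpha chain, encoded by Cd8a, and a beta chain, encoded by Cd8b1. Cytotoxic T cells carry the alpha-beta pair, whereas resident cDC1 of mouse spleen carry alpha-alpha pairs, and CD8 alpha has long served as a surface marker of these cells. The CD3 gamma, delta and epsilon chains, together with the zeta chain, form the signalling part of the T cell receptor complex. LCK, held at the tails of CD4 and CD8, phosphorylates that complex, LAT passes the signal on as a scaffold, and CD5 dampens it. Migratory cDC1, which reach the lymph node from the skin, carry little or no surface CD8 alpha.

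The cells came from the spleen (SPL) or the skin-draining lymph nodes (SDLN) of naive C57BL/6 mice, and all groups, controls included, carried Cd40 alleles flanked by loxP sites (CD40flfl). The groups were SPL Xcr1++ CD40flfl, SPL Xcr1Cre+ CD40flfl, SDLN Xcr1++ CD40flfl and SDLN Xcr1Cre+ CD40flfl, with 3 arrays each. In the Xcr1Cre+ mice, Cre sits at the Xcr1 locus, so that it is made in XCR1-expressing cells, and it was meant to remove Cd40 from cDC1. Spleen cells were sorted as B220-, XCR1+ and Sirpa- with high MHC II and high CD11c, and the migratory lymph node cells with intermediate CD11c. The CD11c gate thus differed between the tissues. T cell surface proteins were not named in the gate. The labels do not give the ages of the mice or say whether replicates were separate animals, and the p-values below therefore cover just the array-to-array spread, which may be technical.

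Cd40, the targeted gene, did not follow the genotype label on every array. In SPL it read 572, 525 and 309 in intensity on the arrays labelled Xcr1++ (replicates 1, 2 and 3) and 365, 214 and 569 on those labelled Xcr1Cre+. In SDLN it read 2138, 2777 and 1542 on the arrays labelled Xcr1++ and 1427, 1388 and 3358 on those labelled Xcr1Cre+. Replicates 1 and 2 were thus lower under the Xcr1Cre+ label in both tissues, with ratios of 0.407 to 0.668, whereas replicate 3 was higher, with ratios of 1.84 and 2.18. The position of the Cd40 probes relative to the deleted exons is not known here. Genotype is therefore given below as the label of the array. All 18 measured genes of a cDC1 identity list were above background in all 4 groups. Xcr1 itself read 1945 to 3508 in SPL and 203 to 286 in SDLN. Array medians ran from 66.1 to 74.4, and the arrays numbered 1 stood apart from the others, with weights of 0.239 to 0.398 when each array was weighted by its residual spread.

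Background was read on each array from 1035 probe sets of olfactory receptors, which are silent in blood cells, and was set at their 95th percentile, an intensity of 49.7 to 62.7. At that level, all 8 genes were above background on all 3 arrays of every group, except Cd4 in SDLN Xcr1++, where 2 of 3 arrays were. At the stricter 99th percentile, 4 of 8 genes remained above background on all arrays in SPL Xcr1++, namely Cd8a, Cd3e, Cd5 and Lat. In SPL Xcr1Cre+ Cd8b1 joined them, for 5 of 8. In SDLN, 7 of 8 passed in Xcr1++ and 6 of 8 in Xcr1Cre+. Cd4 passed it in no group. The spleen values of Cd3d and Cd3g, and those of Cd8b1 in SPL Xcr1++, are therefore close to what unspecific signal can give.

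Promoter entries from RefSeq (build GRCm38.p6) were matched by symbol for 7 of the 9 genes, all but Cd8b1 and Cd4. The 250 bases before the start are shown for Cd8a, the gene that separated the tissues most, and for the CD3 genes, which lie side by side and were higher in the other tissue. The windows are chr6:71373177-71373426 on the plus strand for Cd8a, chr9:44980432-44980681 on the minus strand for Cd3g, chr9:44981536-44981785 on the plus strand for Cd3d and chr9:45009612-45009861 on the minus strand for Cd3e. Capitals mark matches, on either strand, to 6 short motifs, which were TGTGGT for RUNX factors, TATAAA for the TATA box, AGATAA for GATA factors, AGGAAG for ETS factors, TGANTCA for AP-1 and CANNTG for the E-box.
Cd8a: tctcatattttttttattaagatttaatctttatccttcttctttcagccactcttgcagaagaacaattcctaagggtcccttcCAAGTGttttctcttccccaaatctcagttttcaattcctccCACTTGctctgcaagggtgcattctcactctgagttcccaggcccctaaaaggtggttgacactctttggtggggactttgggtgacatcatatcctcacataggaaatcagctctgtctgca
Cd3g: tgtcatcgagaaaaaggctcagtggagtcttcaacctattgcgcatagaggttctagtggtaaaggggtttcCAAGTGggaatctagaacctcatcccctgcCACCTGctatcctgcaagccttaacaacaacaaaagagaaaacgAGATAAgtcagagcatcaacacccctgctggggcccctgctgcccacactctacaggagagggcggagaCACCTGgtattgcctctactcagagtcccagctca
Cd3d: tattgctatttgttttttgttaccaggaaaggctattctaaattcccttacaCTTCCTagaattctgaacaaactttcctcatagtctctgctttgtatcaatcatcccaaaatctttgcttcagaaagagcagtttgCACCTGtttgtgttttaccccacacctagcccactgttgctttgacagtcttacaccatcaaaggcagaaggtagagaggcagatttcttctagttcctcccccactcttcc
Cd3e: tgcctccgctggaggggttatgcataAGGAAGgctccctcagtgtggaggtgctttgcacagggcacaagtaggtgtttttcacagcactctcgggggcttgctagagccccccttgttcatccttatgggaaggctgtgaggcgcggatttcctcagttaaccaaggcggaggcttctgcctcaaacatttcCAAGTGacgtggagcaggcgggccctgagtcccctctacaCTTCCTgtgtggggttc

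Among the matches, Cd8a had E-boxes 165 and 123 bases before its start, counted to the first base of the match, and no match to the other motifs. Cd3g had a GATA match at 104 bases and E-boxes at 178, 148 and 35. Cd3d had an ETS match at 198 on the opposite strand and an E-box at 112. Cd3e had ETS matches at 224 and, on the opposite strand, at 17, with an E-box at 57. Matches of different motifs did not overlap in these windows. Among 32817 RefSeq promoters cut to the same length, 66.2% held an E-box, 29.5% the ETS letters, 14.0% the RUNX letters, 12.4% the TATA box, 9.99% the GATA letters and 6.75% the AP-1 letters. The E-box, present in all 4 windows, was thus also present in most promoters. The starts of Cd3g and Cd3d face away from each other, and both windows lie in the stretch between them. A match is a stretch of letters and not a shown site of binding.

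Cd8a was the member with the largest tissue difference, and it was high in spleen. Its intensity was 1146, 2114 and 2178 in SPL Xcr1++ and 1109, 1979 and 2107 in SPL Xcr1Cre+, against 232, 365 and 267 in SDLN Xcr1++ and 200, 299 and 254 in SDLN Xcr1Cre+ (replicates 1, 2 and 3). The tissues did not overlap, and in each group the array numbered 1 was the lowest. Cd8a still lay 3.22 to 6.84 times above background in SDLN, against 18.7 to 42.4 times in SPL. In log2 units, the SDLN minus SPL difference was -2.62 (SE 0.29, n = 3 arrays per group, limma adjusted p = 1.14e-05) in Xcr1++ and -2.75 (SE 0.29, n = 3 per group, limma adjusted p = 6.86e-06) in Xcr1Cre+. Averaged over both labels, Cd8a was 6.44-fold lower in SDLN (log2 difference -2.69, 95% interval -3.13 to -2.24). The exact two-sided permutation test, with tissue permuted within genotype label, gave p = 0.005, the smallest that its 400 arrangements can give. In such bulk RNA, fewer cells with a transcript and less transcript per cell cannot be told apart.

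Cd8b1, the beta chain of the T cell form of CD8, ran the other way. Its intensity was 84.5, 105 and 103 in SPL Xcr1++ and 107, 103 and 108 in SPL Xcr1Cre+. In SDLN it was 221, 251 and 184 in Xcr1++ and 254, 160 and 177 in Xcr1Cre+. Every SDLN array was above every SPL array, and the spleen arrays lay within 1.28 times of each other. The spleen values were only 1.38 to 2.18 times the background, which limits what the size of the tissue difference can show. The tissue difference was 1.16 (SE 0.17, limma adjusted p = 0.000159) in Xcr1++ and 0.86 (SE 0.17, limma adjusted p = 0.00177) in Xcr1Cre+, or 2.01-fold higher in SDLN when averaged. The chains of CD8 thus changed in opposite directions between the same arrays. Both CD8 genes lie next to each other on chromosome 6 in RefSeq. The genes beyond Cd8b1 were Gm1070, with a log2 tissue difference of 0.28 (SE 0.07), and Krcc1, with 0.77 (SE 0.11), both higher in SDLN. Beyond Cd8a, Rnf103 was lower in SDLN (-0.56, SE 0.11) and Rmnd5a was not called (-0.10, SE 0.12).

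**Figure D1:**
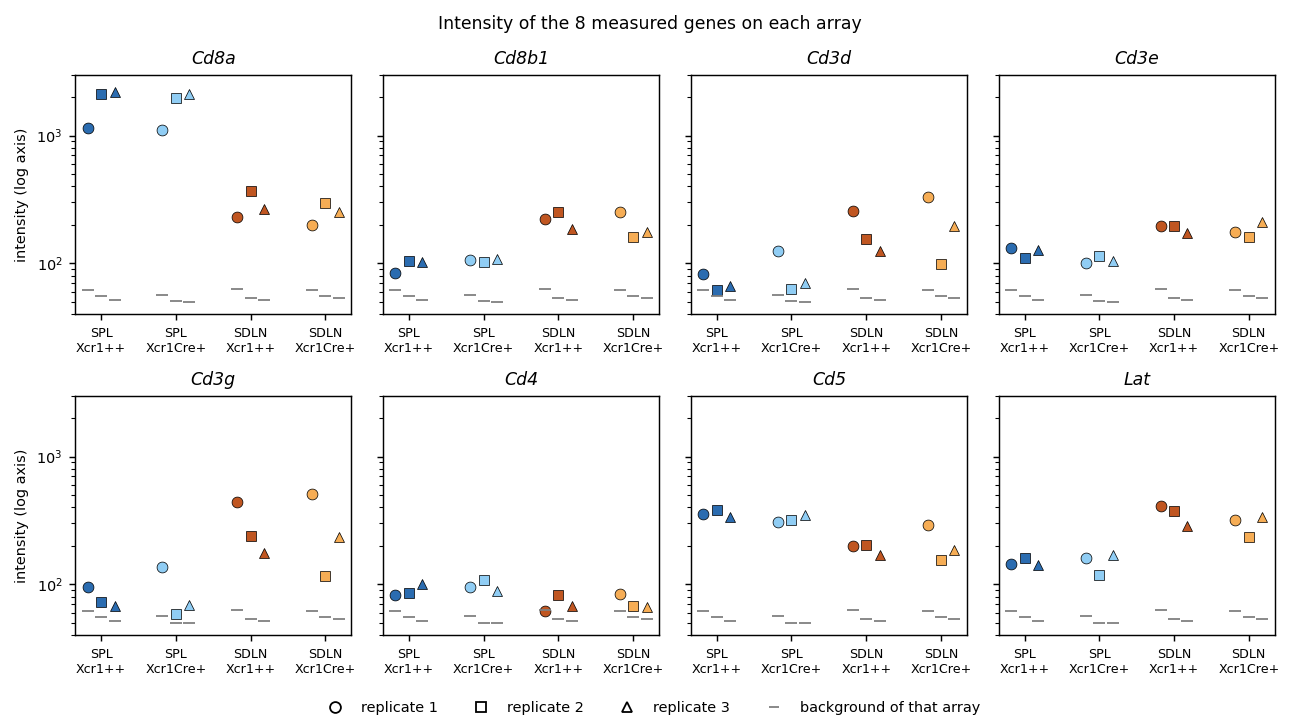
Intensity of the 8 measured genes on each of the 12 arrays, on a log axis, by tissue and genotype label; the marker shape gives the replicate number, and the grey ticks give each array's background, the 95th percentile of the olfactory receptor probe sets. Cd8a sits between 1109 and 2178 in SPL and between 200 and 365 in SDLN, whereas Cd8b1 reads 84.5 to 108 in SPL and 160 to 254 in SDLN, and panels share an axis only for display, since probe sets differ in response.

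All 3 CD3 chains were higher in SDLN than in SPL, and they differed in how much they varied between arrays. Cd3g, the gamma chain, read 95.4, 73.4 and 68.0 in SPL Xcr1++ and 138, 58.9 and 68.8 in SPL Xcr1Cre+. In SDLN it read 445, 241 and 176 in Xcr1++ and 513, 116 and 235 in Xcr1Cre+. The SDLN arrays thus spanned 4.41-fold, and the lowest of them, SDLN Xcr1Cre+ replicate 2, was below the highest spleen array, SPL Xcr1Cre+ replicate 1. In both genotype labels each SDLN array was above the SPL array of the same number, by 1.97- to 4.67-fold. The log2 tissue difference was 1.77 (SE 0.47, limma adjusted p = 0.011) in Xcr1++ and 1.55 (SE 0.47, limma adjusted p = 0.0225) in Xcr1Cre+, and 1.66 (SE 0.33, limma adjusted p = 0.00101) averaged. With replicate number as a block, the limma adjusted p was 5.84e-05 in Xcr1++ and 0.000186 in Xcr1Cre+. In the fit without that block, the call in Xcr1++ was lost when SDLN Xcr1++ replicate 1 was left out (1.40, limma adjusted p = 0.0529). In Xcr1Cre+ it was lost without SDLN replicate 1 (1.01, limma adjusted p = 0.102), SDLN replicate 3 (1.57, 0.0538), SPL replicate 2 (1.31, 0.0962) or SPL replicate 3 (1.42, 0.08), the second value of each pair being the limma adjusted p.

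Cd3d, the delta chain, was highest and lowest in SDLN on the same arrays as Cd3g. It read 83.2, 61.9 and 66.7 in SPL Xcr1++ and 125, 62.4 and 70.6 in SPL Xcr1Cre+, against 257, 155 and 124 in SDLN Xcr1++ and 332, 98.7 and 195 in SDLN Xcr1Cre+. The groups overlapped in Xcr1Cre+ only, where SDLN replicate 2 was below SPL replicate 1. The tissue difference was 1.28 (SE 0.38, limma adjusted p = 0.023) in Xcr1++ and 1.18 (SE 0.38, limma adjusted p = 0.0332) in Xcr1Cre+, and 1.23 (SE 0.27, limma adjusted p = 0.0022) averaged. With replicate number as a block, the limma adjusted p was 0.000208 in Xcr1++ and 0.000414 in Xcr1Cre+. The fit without that block lost the call in Xcr1++ without SDLN replicate 1 (0.98, limma adjusted p = 0.1), SPL replicate 2 (1.19, 0.0782) or SPL replicate 3 (1.25, 0.0682). In Xcr1Cre+ the call was lost without SDLN replicate 1 (0.76, limma adjusted p = 0.153), SDLN replicate 3 (1.14, 0.0842), SPL replicate 2 (0.98, 0.132) or SPL replicate 3 (1.07, 0.11). The averaged tissue difference kept its call for both genes whichever array was left out.

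Cd3e, the epsilon chain, moved less and varied less. It read 131, 111 and 128 in SPL Xcr1++ and 101, 114 and 104 in SPL Xcr1Cre+, then 196, 196 and 173 in SDLN Xcr1++ and 175, 161 and 210 in SDLN Xcr1Cre+. All SDLN arrays were above all SPL arrays, and within each tissue the highest array was 1.3 times (SPL) and 1.31 times (SDLN) the lowest. The tissue difference was 0.61 (SE 0.13, limma adjusted p = 0.00289) in Xcr1++ and 0.77 (SE 0.13, limma adjusted p = 0.000502) in Xcr1Cre+. The CD3 genes are neighbours on chromosome 9 in RefSeq, in the order Cd3g, Cd3d, Cd3e. The flanking genes Ube4a (-0.06, SE 0.14), Atp5l (0.20, SE 0.18), Mpzl2 (-0.19, SE 0.14) and Mpzl3 (-0.20, SE 0.10) were not called in the averaged tissue comparison.

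Lat, the scaffold that T cell receptor signalling assembles on, was higher in SDLN. It read 144, 162 and 143 in SPL Xcr1++ and 162, 119 and 171 in SPL Xcr1Cre+, against 414, 374 and 289 in SDLN Xcr1++ and 317, 233 and 337 in SDLN Xcr1Cre+. No SDLN array overlapped a spleen array. The tissue difference was 1.25 (SE 0.19, limma adjusted p = 0.000178) in Xcr1++ and 0.97 (SE 0.19, limma adjusted p = 0.00131) in Xcr1Cre+, and the ratio between same-numbered arrays was 1.96 to 2.88.

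Cd5, the inhibitory receptor shared by T cells and some dendritic cells, was lower in SDLN. It read 355, 383 and 336 in SPL Xcr1++ and 309, 317 and 347 in SPL Xcr1Cre+. In SDLN it read 201, 203 and 170 in Xcr1++ and 290, 155 and 185 in Xcr1Cre+, so that SDLN Xcr1Cre+ replicate 1 came close to the spleen arrays but stayed below all of them. The tissue difference was -0.91 (SE 0.19, limma adjusted p = 0.00265) in Xcr1++ and -0.67 (SE 0.19, limma adjusted p = 0.0175) in Xcr1Cre+, or -0.79 (SE 0.14, limma adjusted p = 0.000325) averaged. In Xcr1Cre+ the call was lost without SDLN replicate 2 (-0.48, limma adjusted p = 0.0854), SDLN replicate 3 (-0.61, 0.0677) or SPL replicate 3 (-0.62, 0.0684), and under quantile normalization (-0.47, 0.13).

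Cd4, the co-receptor of helper T cells, lay close to background in all groups. It read 82.4, 86.1 and 101 in SPL Xcr1++ and 96.3, 109 and 89.5 in SPL Xcr1Cre+, against 62.1, 82.1 and 67.5 in SDLN Xcr1++ and 83.6, 67.2 and 66.7 in SDLN Xcr1Cre+. It lay 0.99 to 1.54 times the background in SDLN, so its level there is hard to tell from unspecific signal. Within each genotype label the tissues did not overlap, by the narrow margin of 82.1 against 82.4 in Xcr1++. It was not called in Xcr1++ (-0.35, SE 0.14, limma adjusted p = 0.084), although it was there when SDLN replicate 2 was left out (-0.47, limma adjusted p = 0.0363). In Xcr1Cre+ it was lower in SDLN (-0.44, SE 0.14, limma adjusted p = 0.0277), a call that was lost without SPL replicate 1 (-0.46, limma adjusted p = 0.0503), SPL replicate 2 (-0.36, 0.123), SDLN replicate 2 (-0.39, 0.0945) or SDLN replicate 3 (-0.39, 0.0992). Averaged over both labels it was lower in SDLN (-0.40, SE 0.10, limma adjusted p = 0.00498).

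Counted over the set, Cd8b1, Cd3d, Cd3e, Cd3g and Lat were higher in SDLN in Xcr1++ (5 of 8), where 12.9% of all genes were called higher. Cd8a and Cd5 were lower (2 of 8, against 13.2% of all genes), and 1, Cd4, was not called. In Xcr1Cre+ the same 5 of 8 were higher, against 13.1% of all genes, and 3 of 8 (Cd8a, Cd5 and Cd4) were lower, against 15.2%. The number called in Xcr1Cre+ fell from 8 to 5 without SPL Xcr1Cre+ replicate 2 or replicate 3, and to 4 without SDLN Xcr1Cre+ replicate 3. Averaged over the labels the split was again 5 higher and 3 lower, against 18.6% and 18.3% of all genes. The median log2 tissue difference of the 8 genes was 0.85, beside 0.05 over all genes. These comparisons share arrays and are not independent of each other.

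**Figure D2:**
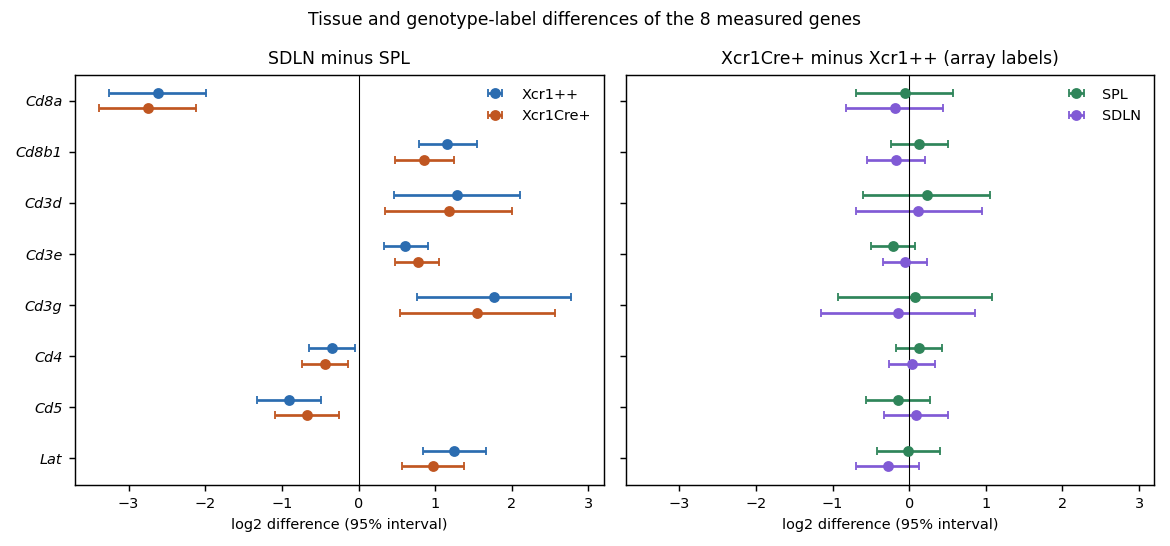
Log2 differences of the 8 measured genes with 95% intervals from limma; the left panel gives SDLN minus SPL within each genotype label, and the right panel gives arrays labelled Xcr1Cre+ minus arrays labelled Xcr1++ within each tissue (n = 3 arrays per group). On the left Cd8a lies at -2.62 and -2.75 and Cd3g at 1.77 and 1.55, and on the right all intervals include 0.

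Differences between arrays of one tissue were not shared by all members. Relative to the mean of the 6 SDLN arrays, Cd3g deviated by 0.81 on SDLN Xcr1++ replicate 1 and 1.02 on SDLN Xcr1Cre+ replicate 1, and by -1.12 on SDLN Xcr1Cre+ replicate 2 (log2 units). Cd3d deviated by 0.53, 0.90 and -0.85 on the same arrays, and Cd3e by 0.09, -0.08 and -0.20. Cd3g and Cd3d thus had their extremes on the same SDLN arrays, while Cd3e stayed within 0.20 of its mean. Cd8a was below its tissue mean on the arrays numbered 1, by deviations of -0.19 and -0.41 in SDLN and -0.57 and -0.62 in SPL. Cd2, an adhesion receptor of T cells, was high and low on the same SDLN arrays as Cd3g, at 256 on Xcr1Cre+ replicate 1 and 93.3 on Xcr1Cre+ replicate 2.

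Among the members, 4 of 8 (Cd8b1, Cd3d, Cd3g and Cd5) were highest of the 6 SDLN arrays on Xcr1Cre+ replicate 1 and lowest on Xcr1Cre+ replicate 2. So were 5 of 19 measured T cell markers (Cd2, Cd28, Sh2d1a, Skap1 and Cd27) and 7.14% of all genes. This order was chosen after the values of Cd3g and Cd3d had been seen. Both genes are in the count of members by that choice, so that the count is a description. Without the 4 arrays numbered 1, the averaged tissue difference kept its direction and its call for all 8 genes.

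**Figure D3:**
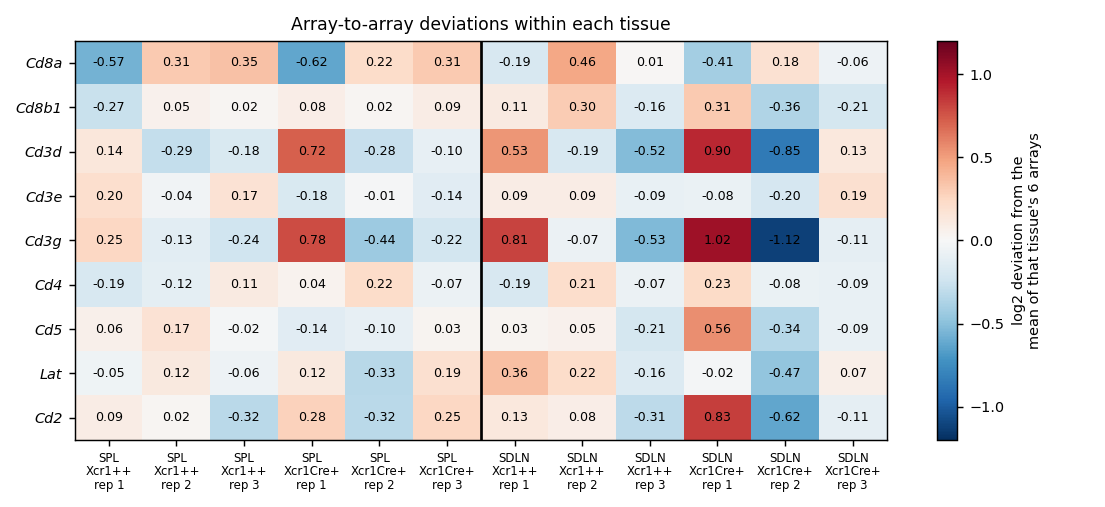
Log2 deviation of each array from the mean of the 6 arrays of its tissue, for the 8 measured genes and, in the last row, the T cell adhesion receptor Cd2; red is above and blue below that mean, and the vertical line parts SPL from SDLN. Cd3g reaches 1.02 on SDLN Xcr1Cre+ replicate 1 and -1.12 on replicate 2 of that group, Cd3d reaches 0.90 and -0.85 there, and Cd8a is below its tissue mean on all 4 arrays numbered 1.

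A list of 24 other T cell markers was read beside the set, of which 19 were measured. Of these, 14 were higher in SDLN in the averaged tissue comparison, 0 were lower and 5 were not called, beside 18.6% higher and 18.3% lower among all genes. The median of the list was 0.40, against 0.05 for all genes. Of the 14, Cd28, Themis and Gata3 did not reach background on all 3 arrays of any group. The defining constant chains of the T cell receptor (Trac, Trbc1, Trbc2) and Tcf7 were among those with no single-symbol probe set and were not analysed here. The rise was led by Il7r, the interleukin-7 receptor chain (3.67, SE 0.19), which went from 73.9 to 138 in SPL to 772 to 1752 in SDLN, and by the costimulatory receptor Icos (1.34, SE 0.10), from 227 to 305 up to 612 to 734. Cd2 was higher too (0.98, SE 0.20, limma adjusted p = 0.00151). Cd247, the zeta chain of the T cell receptor complex, was higher by 0.35 (SE 0.08) and Zap70, the kinase that binds it, by 0.40 (SE 0.10); both were chosen for their roles after their values were seen. Cd6, a receptor related to Cd5, was not called (0.27, SE 0.11, limma adjusted p = 0.0585).

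The level of the T cell list was low apart from a few genes. Counting a group only where all 3 arrays passed, 7 of the 19 were above background in no group: Trat1, Cd28, Themis, Ubash3a, Sh2d1a, Gata3 and Camk4. Cd28 did pass on 2 of the 6 SDLN arrays, and the other 6 on none. Summed over the 19 genes, the intensity was 1358 to 1421 in SPL Xcr1++, 1233 to 1403 in SPL Xcr1Cre+, 2771 to 3648 in SDLN Xcr1++ and 3294 to 3635 in SDLN Xcr1Cre+. Without Il7r and Icos, the sum of the other 17 was 1013 to 1055, 920 to 1058, 1236 to 1474 and 1217 to 1621 in the same order. The highest of these sums, 1621, was on SDLN Xcr1Cre+ replicate 1 and the lowest SDLN one, 1217, on SDLN Xcr1Cre+ replicate 2. Cd3g and Cd3d were also highest and lowest on these arrays. Cd2, which is part of the sum, read 256 and 93.3 there. Leaving out Il7r and Icos, the genes of the list that rose most, was not planned beforehand, so the order of these sums is a description. The SDLN sum of all 19 genes did not share this order. It was highest on SDLN Xcr1++ replicate 3 (3648) and lowest on SDLN Xcr1++ replicate 1 (2771). The 9 measured T cell receptor gene segments gave 3 higher and 0 lower in SDLN, beside 18.6% and 18.3% of all genes. Of the 3, Trav14-1 and Trav7n-5 were above background in no group by the same rule. In all, 7 of the 9 segments were above background in no group, although Trav19 passed on 3 of the 6 SDLN arrays. Trbv1 (0.31, SE 0.08) and Trav13-5 (0.27, SE 0.11, limma adjusted p = 0.0654) were above it in all 4 groups. Whether T cell RNA in the sorted cells had a part in the SDLN values of Cd8b1, the CD3 genes and Lat was not tested.

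Genes of the signalling pathway downstream of these receptors were called in both directions. Of 39 listed genes of T cell receptor signalling, 37 were measured, some of them also in the T cell list, and 12 were higher in SDLN, 11 were lower and 14 were not called, beside 18.6% higher and 18.3% lower among all genes, with a median of 0.17 against 0.05. The largest rises were those of Dok1, an inhibitory adaptor (2.22, SE 0.12), and Tec, a tyrosine kinase (2.10, SE 0.23). The largest falls were those of Sla, an adaptor that lowers receptor levels (-3.98, SE 0.19), and Unc119, an activator of Src-type kinases (-3.89, SE 0.15). Lcp2, the adaptor SLP-76 that works alongside Lat, was lower (-2.04, SE 0.14), as were Ptprc, the phosphatase CD45 (-1.61, SE 0.18), and Fyn, a Src-type kinase like Lck (-0.66, SE 0.11). Lcp2 and Fyn were chosen for their roles after their values were seen. Cblb, a ubiquitin ligase that restrains signalling, was higher (1.84, SE 0.14), and Malt1 was not called (-0.13, SE 0.12).

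Of 16 regulators that set CD4 or CD8 expression or lineage in T cells, 15 were measured, and 8 were higher in SDLN, 5 lower and 2 not called, beside 18.6% higher and 18.3% lower among all genes, with a median of 0.34 against 0.05. Runx3, which acts on the Cd8 locus in T cells, was lower (-1.74, SE 0.09), as were Ikzf1 (-1.59, SE 0.09), Runx1 (-1.38, SE 0.12) and Satb1 (-1.07, SE 0.15). Myb (1.73, SE 0.14), Tcf3, which encodes an E-box binding factor (1.30, SE 0.13), Patz1 (0.88, SE 0.11) and Zbtb7b, the factor ThPOK of helper T cells (0.76, SE 0.13), were higher. Runx1, Satb1, Patz1 and Zbtb7b were picked from the list after their values were seen. The chromatin remodeller Smarca4 was not called (-0.21, SE 0.10). Gata3, which is among the 8 called higher, did not reach background on all 3 arrays of any group.

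Cd8a fell in SDLN beside the other markers of resident cDC1. All 6 measured genes of that list (beside 18.3% of all genes), some of which are also in the cDC1 identity list, were lower in SDLN, among them Treml4 (-4.72, SE 0.19), Rab7b (-4.36, SE 0.15), Clec9a, a receptor for dead cells (-4.12, SE 0.16), and Btla (-3.30, SE 0.18). The 18 cDC1 identity genes gave 4 higher, 12 lower and 2 not called, beside 18.6% higher and 18.3% lower among all genes. They ran from Tlr3 (-4.63, SE 0.16) and Naaa (-4.54, SE 0.19) to Id2 (0.77, SE 0.12) and Ly75 (1.02, SE 0.19). Irf8, the factor that cDC1 depend on, was not called (-0.22, SE 0.12). Of 11 measured genes of migratory dendritic cells, 10 were higher in SDLN, beside 18.6% of all genes, and 1 was not called. Among the 10 were Fscn1 (4.49, SE 0.21), Socs2 (4.23, SE 0.11) and the homing receptor Ccr7 (1.36, SE 0.11).

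Markers of other cell types were read as well, although the gate (B220-, Sirpa-, XCR1+) should remove B cells, plasmacytoid dendritic cells and cDC2. Their counts are to be read beside the 18.6% of all genes that were higher in SDLN and the 18.3% that were lower. Of 13 NK cell markers, 0 were higher in SDLN and 5 were lower, with Klrk1 the strongest (-1.85, SE 0.13). Of 13 B cell markers, 1 was higher and 4 were lower, among them Fcrla (-3.40, SE 0.24) and Ms4a1 (-2.37, SE 0.12). The 11 macrophage and monocyte markers gave 1 higher and 3 lower, with Cd14 at -3.79 (SE 0.30) and Lyz2 at -3.67 (SE 0.18). The 12 cDC2 markers gave 4 higher and 4 lower, with Esam at 1.75 (SE 0.22) and Clec12a at -2.13 (SE 0.15). The 9 plasmacytoid dendritic cell markers gave 4 higher and 2 lower, with Spib at 1.47 (SE 0.14) and Ccr9 at -2.64 (SE 0.10). Of 9 platelet and mast cell markers, 0 were higher and 1 was lower. The called genes Klrb1c, Klri2, Fcer2a, Tlr7, Itgam and Ppbp were above background in no group.

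**Figure D4:**
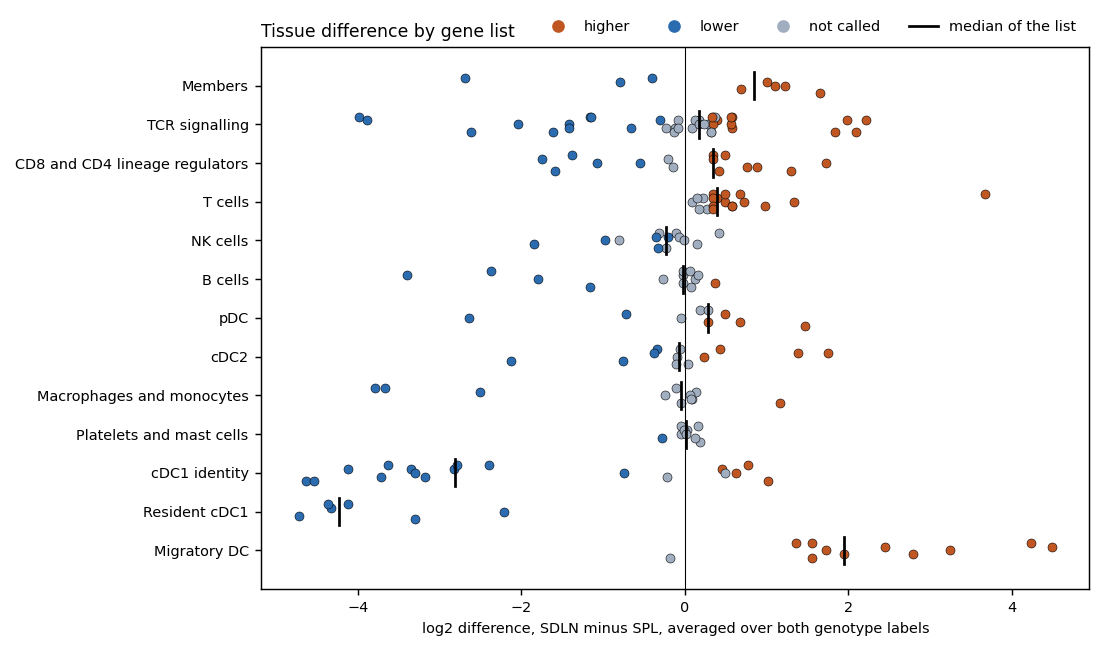
Log2 tissue difference, SDLN minus SPL averaged over both genotype labels, for each measured gene of the set (top row) and of 12 lists read beside it; orange and blue points were called higher and lower by limma at an adjusted p under 0.05, grey points were not called, and black bars are list medians. The medians run from -4.22 for the resident cDC1 markers to 1.95 for the migratory ones, and the T cell markers, at 0.40, have no gene called lower.

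By genotype label, no member passed the test in either tissue. In limma, 0 of 8 were called in SPL, in SDLN and for the tissue by genotype difference, as were 0.0% of all genes in each of the 3. At an unadjusted p under 0.05, 0 members stood out in any of them, against 357, 402 and 326 of all genes. Member differences (Xcr1Cre+ minus Xcr1++) ran from -0.21 to 0.23 in SPL and from -0.28 to 0.12 in SDLN, and their 95% intervals reached from -0.93 to 1.08 and from -1.15 to 0.95. With replicate number as a block, the intervals narrowed to between -0.51 and 0.68 in SPL and between -0.68 and 0.58 in SDLN, and again no member was called. Cd8a differed by -0.06 in SPL (95% interval -0.70 to 0.57) and by -0.19 in SDLN (-0.83 to 0.44); with the block the intervals were -0.36 to 0.23 and -0.49 to 0.10. The ratio between same-numbered arrays was 0.936 to 0.968 in SPL and 0.818 to 0.951 in SDLN, below 1 in all of them. The widest intervals were those of Cd3g, whose ratios in SDLN were 1.15, 0.483 and 1.34. Since replicate 3 went against its label for Cd40, a genotype effect on these genes is read here only as a difference between labels.

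The genes whose profiles over the 12 arrays were most like that of Cd8a were sought among the 12136 genes above background in at least 1 group. Likeness was the root mean square difference of log2 values, each gene centred on its own mean. The 5 nearest were Rpn1 (0.126 log2 units), Itgax (0.141), Eif4g3 (0.194), Fndc7 (0.198) and Qtrt2 (0.199). Itgax encodes CD11c, for which the sort gate differed between the tissues. It read 3562 to 5468 in SPL and 478 to 964 in SDLN, and its log2 tissue difference was -2.72 (SE 0.18). Rpn1, a subunit of the enzyme that attaches sugar chains to proteins in the endoplasmic reticulum, had a difference of -2.63 (SE 0.17). Its SDLN values, 56.1 to 94.8, were near background and above it on 4 of 6 arrays. Like Cd8a, Itgax and Rpn1 were lowest in spleen on the arrays numbered 1. Their array patterns are like that of Cd8a because the search chose them for that.

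The same search for Cd3g, added after the values were seen, gave Gm15417 (0.268), Cd3d (0.271), Dapl1 (0.295), Mrpl14 (0.337) and Nupr1 (0.345). Of these, Cd3d alone belongs to the set. Gm15417 read 331, 166 and 174 in SDLN Xcr1++ and 450, 156 and 237 in SDLN Xcr1Cre+, against 68.4 to 106 in SPL, and shared with Cd3g the highest SDLN value on Xcr1Cre+ replicate 1. The tissue difference was 1.55 (SE 0.24) for Gm15417, 1.53 (SE 0.29) for Dapl1, 1.45 (SE 0.25) for Mrpl14 and 2.05 (SE 0.25) for Nupr1. Dapl1 was above background on 0 of 6 SPL arrays. Mrpl14, which encodes a protein of the mitochondrial ribosome, read 1579, 803 and 853 in SPL Xcr1++ and 1652, 791 and 886 in SPL Xcr1Cre+, then 4003, 2153 and 2373 in SDLN Xcr1++ and 4299, 2198 and 2641 in SDLN Xcr1Cre+. Its array pattern is like that of Cd3g because the search chose it for that.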

How the data were processed

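RNA of sorted cDC1 was hybridised to 12 arrays (Affymetrix Mouse Gene 1.0 ST), 3 in each of 4 groups. Per the submitters' processing notes, the authors used RMA and Affymetrix Expression Console, with no versions given. The deposited values are intensities; they ran from 8.23 to 20398, so log2 was taken here. RMA compresses differences between low values, so folds near background may be understated. The number of arrays limits the precision.

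Of 28853 probe sets, 21789 carried a single symbol. The brightest per gene was kept, which left 19938 genes. Each was fitted in limma 3.58.1 (R 4.3.3) with 4 group means, eBayes with a variance trend and two-sided tests. P-values were adjusted by Benjamini-Hochberg over all genes in each of 6 comparisons, with calls made at adjusted p-values under 0.05. The procedure was tested on simulated data. Figures were drawn in matplotlib 3.10.9 (Python 3.11.15).

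Replicate numbers are shared across groups in the labels. Deviations from the group means correlated, over genes, between same-numbered arrays: r was 0.573 to 0.729 among those numbered 1, 0.309 to 0.449 among those numbered 2 and 0.293 to 0.466 among those numbered 3. Between different numbers the median r was -0.449. By this measure same-numbered arrays deviated alike, and the labels do not say why. Each group of 3 was centred on its own mean, so a shift shared by the arrays numbered 1 alone could give the same signs. The median pools all pairs of different numbers, so this measure cannot show that numbers 2 and 3 mark pairs. The reported values come from the fit of group means without replicate number, and the fit with replicate number as a block is an alternative.

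The members and the lists were chosen with earlier results of these data known. Named genes were all members, Cd40 and Xcr1, from each list up to 2 called genes that rose most, 2 that fell most and 4 highest over background, and the 5 genes nearest to Cd8a; others are marked as chosen later. Alternatives were a replicate block, array weights, quantile normalization, a filter on dim genes, the mean of a gene's probe sets, no variance trend, leaving out each array or the arrays numbered 1, and other background levels.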

Additional observations from a re-analysis of the deposited data

How the results depend on the processing

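The averaged tissue difference kept its direction and its call in all 152 combinations of member and alternative setting. Within Xcr1++, 147 of 152 kept both, 4 lost the call and 1 gained it. Within Xcr1Cre+, 136 of 152 kept both and 16 lost the call, and leaving out 1 array gave 4 to 8 members called. The replicate block changed no member's call: Cd4 in Xcr1++ had a limma adjusted p of 0.0579 with it, and 7 (Xcr1++) and 8 (Xcr1Cre+) members were called. Over all genes it gave 7178 tissue calls in Xcr1++, 8170 in Xcr1Cre+ and 9494 averaged, against 5207, 5648 and 7374 without it. By genotype label it gave 0 calls in SPL and in SDLN, with 886 and 1360 genes at an unadjusted p under 0.05. Array weights moved the number of genes called to 9020 (tissue in Xcr1++), 8933 (tissue in Xcr1Cre+), 51 (genotype label in SPL), 2 (genotype label in SDLN) and 3 (tissue by genotype), the cause was not tested, and none of the 8 members was called by genotype label in that fit. At the 99th percentile of the olfactory receptors, 4 members in SPL Xcr1++ and 5 in SPL Xcr1Cre+ were above background. None of the genotype differences of the members was called, and several changed sign. Leaving out 1 array, the SPL difference ran from -0.36 to 0.23 for Cd8a, -0.08 to 0.42 for Cd3d, -0.29 to 0.32 for Cd3g and -0.11 to 0.15 for Lat. The SDLN difference ran from -0.30 to 0.58 for Cd3d, -0.17 to 0.03 for Cd3e, -0.69 to 0.39 for Cd3g, -0.07 to 0.15 for Cd4 and -0.17 to 0.28 for Cd5. The tissue by genotype difference ran from -0.42 to 0.17 for Cd8a, -0.52 to 0.35 for Cd3d, -0.76 to 0.31 for Cd3g, -0.20 to 0.02 for Cd4 and -0.02 to 0.43 for Cd5. With array weights, the signs turned for Cd3g in SPL (-0.11) and for Cd4 (-0.23) and Cd5 (-0.13) in SDLN. Without the arrays numbered 1 they turned for Cd3g in SPL (-0.15), for Cd4 (-0.15) and Cd5 (-0.13) in SDLN and for the tissue by genotype difference of Cd5 (-0.02). Under quantile normalization Cd3e in SDLN came to 0.00. Signal close to background limits what can be said of Cd4 in all groups and of Cd3d, Cd3g and Cd8b1 in SPL.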
